A study of Mus musculus with 6 samples.

Results

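T cells and natural killer (NK) cells were followed through 32 textbook genes of these lymphocytes, taken by name from a count table of 54232 genes. The 32 genes were chosen with earlier results of these data known. The table came from RNA-seq of primary uterine stromal cells collected on day 4 of pseudopregnancy, with 3 libraries from WT mice and 3 from Pbrm1 cKO mice. Controls bear the label WT, although the methods of the study describe littermates with floxed alleles (Pbrm1 fl/fl) and no Cre. The Pbrm1 cKO mice carried the same floxed alleles together with PR-IRES-cre, in which the progesterone receptor gene drives Cre in stroma, epithelium and other receptor-expressing cells of the reproductive tract. Mice of both groups were 8 to 12 weeks old, and a preparation pooled 5 to 10 uterine horns whose cells were plated for a few hours before RNA was taken. The study describes its RNA-seq libraries as biological replicates, the labels do not say from which preparation each came, and p-values measure the spread between these libraries. Total counts ran from 13253575 to 18338667 per library. Pbrm1, the targeted gene, had normalized counts of 1472 ± 178 (SD, n = 3) in WT and 436 ± 33.9 (n = 3) in Pbrm1 cKO, which is 29.6% of WT (DESeq2 log2 fold change −1.76 ± 0.13 (SE), adjusted p = 5.19e-40).

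T cells recognize peptides through a T cell receptor whose antigen-binding chains cannot signal alone. The CD3 chains and the zeta chain (Cd247) carry the signal into the cell, where the kinases Lck and Zap70 and the adaptor Lat pass it on. NK cells lack a rearranged receptor, read activating and inhibitory surface receptors of the Klr and Ncr families, and kill with perforin and granzymes. Uterine NK cells are abundant in the decidua and take part in remodelling its arteries, whereas T cells are sparser in the uterus. The labels name the cells studied here only as stromal.

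The promoters of 4 genes are shown first, because they belong to the CD3 chain genes and to Il7r, the member with the most counts in Pbrm1 cKO. Each is the RefSeq window on GRCm38.p6 from 250 bases before to 50 bases after the start of the gene, printed 5′ to 3′ on the strand of the gene, and 24 of the 32 members had such a window. Cd3g lies on the minus strand (chr9:44980382-44980681), Cd3d on the plus strand (chr9:44981536-44981835), Cd3e on the minus strand (chr9:45009562-45009861) and Il7r on the minus strand (chr15:9529827-9530126). Cd3g and Cd3d point away from each other, with 1355 bases between their starts. Capitals mark GGAAGT (Ets factors), TGTGGT (Runx factors), CAGGTG (an E-box of E proteins) and GGTGTGA (T-box factors), each on either strand.
Cd3g: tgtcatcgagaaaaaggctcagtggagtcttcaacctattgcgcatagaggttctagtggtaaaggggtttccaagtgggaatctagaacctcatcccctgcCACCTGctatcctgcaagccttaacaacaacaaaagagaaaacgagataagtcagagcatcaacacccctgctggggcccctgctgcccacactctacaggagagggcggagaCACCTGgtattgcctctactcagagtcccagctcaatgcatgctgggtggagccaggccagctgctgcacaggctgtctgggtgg
Cd3d: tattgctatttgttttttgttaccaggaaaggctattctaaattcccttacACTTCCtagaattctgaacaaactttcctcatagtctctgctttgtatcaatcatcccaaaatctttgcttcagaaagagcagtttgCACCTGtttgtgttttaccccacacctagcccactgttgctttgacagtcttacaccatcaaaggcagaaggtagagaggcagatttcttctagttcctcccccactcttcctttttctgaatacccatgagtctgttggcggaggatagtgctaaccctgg
Cd3e: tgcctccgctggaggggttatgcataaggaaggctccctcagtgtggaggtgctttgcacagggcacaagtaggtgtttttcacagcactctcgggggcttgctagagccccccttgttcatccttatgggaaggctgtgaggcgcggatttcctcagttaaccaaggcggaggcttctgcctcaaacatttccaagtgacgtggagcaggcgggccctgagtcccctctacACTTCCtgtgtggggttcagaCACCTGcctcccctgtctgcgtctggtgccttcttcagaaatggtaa
Il7r: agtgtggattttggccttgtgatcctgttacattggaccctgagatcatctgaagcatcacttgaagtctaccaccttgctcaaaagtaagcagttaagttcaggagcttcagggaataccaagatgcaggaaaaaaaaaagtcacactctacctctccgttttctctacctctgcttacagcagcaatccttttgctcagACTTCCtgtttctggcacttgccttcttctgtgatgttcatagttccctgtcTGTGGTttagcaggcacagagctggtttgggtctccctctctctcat
All 3 CD3 promoters held the E-box letters, with 2 copies in Cd3g, 1 in Cd3d and 1 in Cd3e. The Ets letters occurred once in Cd3d, Cd3e and Il7r, and the Runx letters once in Il7r. Of the 24 member genes with a window, 11 held the E-box (45.8%), 11 the Ets letters (45.8%), 13 the Runx letters (54.2%) and 1, Nkg7, the T-box letters (4.2%). Among all 27025 genes with a window, the shares were 22.6%, 26.5%, 18.9% and 4.6%. These motifs were kept from a wider set of textbook motifs after their matches had been seen, and a match describes letters, not binding.

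The comparison of Pbrm1 cKO with WT asked which transcripts depend on Pbrm1 in these cells. All 32 members had at least 1 read, but 15 of them were too low for the filter of DESeq2, which left out genes with a mean normalized count under 2.67. Of the 17 members past it, Cd3g, Trbc1, Zap70, Il2rb, Il7r and Cd69 were higher in Pbrm1 cKO, 0 were lower and 11 did not pass the threshold (DESeq2, adjusted p under 0.05). Among all 17471 genes tested, 15.9% were higher and 15.2% were lower. With an unadjusted p under 0.05, DESeq2 still gave 0 lower members, and edgeR, which tested only 5 members and neither Trbc2 nor Cd4, called 0 lower. A low gene passes the filter more readily when it is high in a group, so the count of 6 and the median below are descriptions of the members tested. The count was 3 without Pbrm1 cKO replicate 2, where Cd3g, Il7r and Cd69 were left. The median log2 fold change was 1.76 over the 17 tested members and −0.001 over all genes tested. In bulk RNA, more cells of a type and more RNA per cell cannot be told apart.

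**Figure D1:**
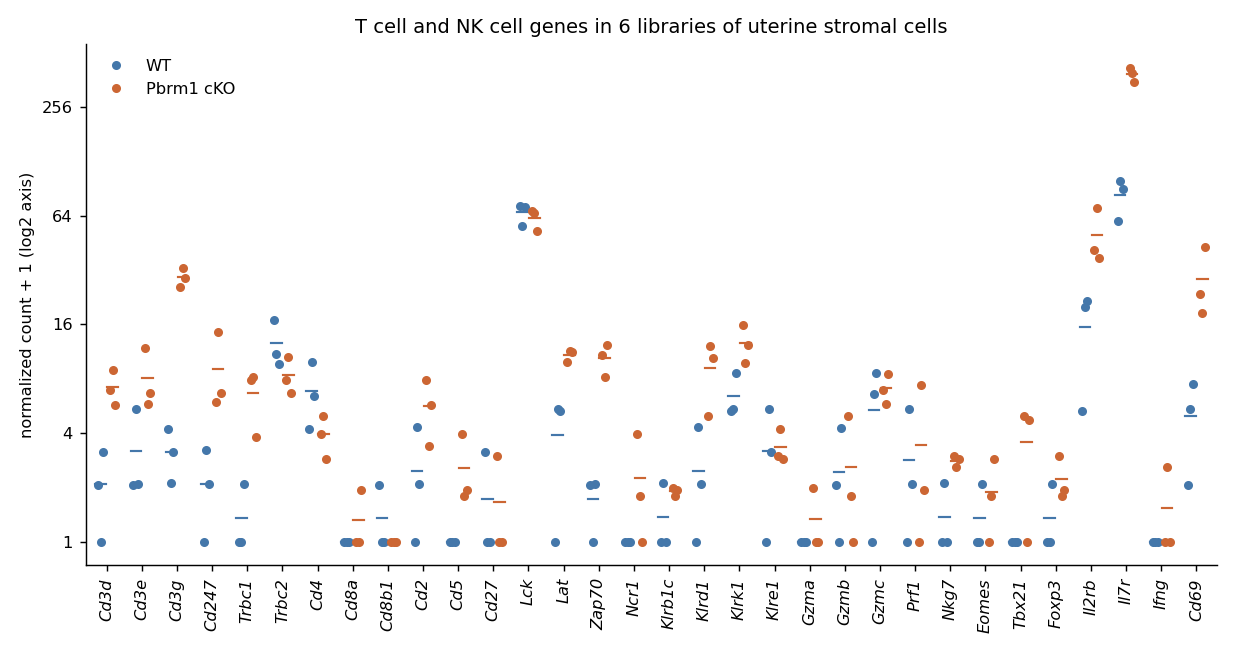
Normalized counts plus 1 on a log2 axis for the 32 members in each WT library (blue) and each Pbrm1 cKO library (orange), with points for libraries and short lines for group means. Il7r is the highest member in Pbrm1 cKO, Cd3g, Il7r, Il2rb and Cd69 separate the groups, and Lck does not.

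Cd3g encodes the gamma chain of CD3, a signalling chain of the T cell receptor complex. Its counts were 3, 1 and 2 in WT and 25, 40 and 30 in Pbrm1 cKO. The groups did not overlap, and every Pbrm1 cKO library held several times the highest WT count. Normalized counts were 2.16 ± 1.05 in WT and 28.3 ± 3.65 in Pbrm1 cKO (SD over 3 libraries; DESeq2 log2 fold change 3.71 ± 0.75 (SE), adjusted p = 7.57e-06). The gene spans chr9:44969572-44980431 in the count table, with no other annotated gene in its span.

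Cd3d and Cd3e encode the delta and epsilon chains, and neither passed the threshold. Counts of Cd3d were 1, 0 and 2 in WT and 6, 10 and 5 in Pbrm1 cKO (log2 fold change 2.52, SE 1.25, adjusted p = 0.114). Counts of Cd3e were 1, 4 and 1 in WT and 11, 6 and 6 in Pbrm1 cKO (log2 fold change 1.69, SE 1.04, adjusted p = 0.228). In both genes all Pbrm1 cKO libraries lay above all WT libraries. Summed over the 3 CD3 chains, each WT library had 5 counts, and the Pbrm1 cKO libraries had 42, 56 and 41. Per length, Cd3g held 53.5%, 23.8% and 31.2% of the summed CD3 TPM (counts scaled to gene length and library size) in WT and 56%, 63.7% and 68.5% in Pbrm1 cKO, shares that rest on only 5 counts in a WT library.

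Cd247, the zeta chain shared by the T cell receptor and by some NK receptors, had counts of 0, 2 and 1 in WT and 5, 17 and 6 in Pbrm1 cKO. The ratio of the summed, depth-scaled counts was 7.74 (exact 95% counting interval 2.39 to 39.8), and the DESeq2 adjusted p of 0.056 missed the threshold. All Pbrm1 cKO libraries were above all WT libraries, with Pbrm1 cKO replicate 2 the highest.

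The beta chain of the receptor has a constant region encoded by Trbc1 or Trbc2, and these genes went separate ways. Trbc1 (chr6:41538218-41539881) had counts of 0, 0 and 1 in WT and 7, 9 and 3 in Pbrm1 cKO. The ratio was 15.7 with an exact counting interval of 2.5 to 654, as WT held a single read (DESeq2 adjusted p = 0.0485). Trbc2 had counts of 15, 9 and 8 in WT against 7, 12 and 6 in Pbrm1 cKO, with overlapping groups (log2 fold change −0.64, SE 0.66, adjusted p = 0.526). Trbc1 and Trbc2 are near-identical copies, reads that map to both are lost by the default of the counting program, and the split between them is uncertain. The call for Trbc1 also rests on the filter, since it was not tested in 10 of 13 other settings and missed the threshold in 2 more.

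Other constant genes of the receptor were looked at after their values were seen, except Trdc, 1 of the 3 genes with the lowest adjusted p on a list of 38 other T cell genes. Trdc, the delta constant gene, had counts of 11, 14 and 15 in WT and 56, 70 and 55 in Pbrm1 cKO (DESeq2 log2 fold change 1.91 ± 0.38 (SE), adjusted p = 4.98e-06). Tcrg-C1, a gamma constant gene, had 0, 0 and 4 in WT and 17, 29 and 39 in Pbrm1 cKO (log2 fold change 4.14, SE 0.94, adjusted p = 9.04e-05). Trac, the alpha constant gene, had 0, 0 and 1 in WT and 4, 12 and 8 in Pbrm1 cKO (adjusted p = 0.0224). In each of these 3 genes the groups were apart. Tcrg-C2, another gamma constant gene, had 2, 2 and 1 in WT and 4, 7 and 4 in Pbrm1 cKO and did not pass the threshold (log2 fold change 1.30, SE 1.14, adjusted p = 0.438). On the TPM scale in Pbrm1 cKO, Tcrg-C1 (5.93 ± 2.17, SD) and Trdc (3.04 ± 0.212) lay above Trac (1.62 ± 0.649) and Tcrg-C2 (1.05 ± 0.249), and Trbc2 (2.31) and Trbc1 (1.64) were near Trac.

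**Figure D2:**
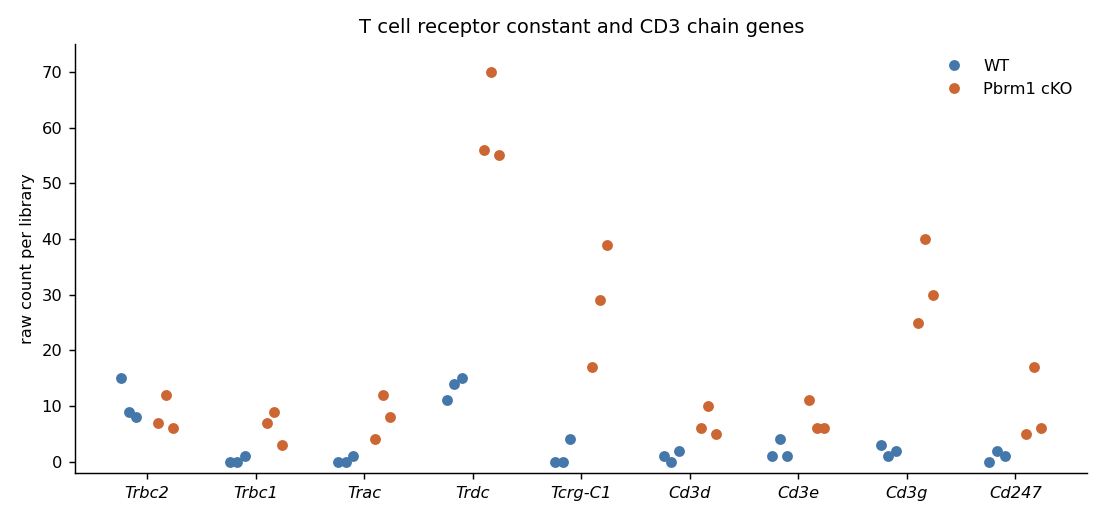
Raw counts per library of the T cell receptor constant genes and the CD3 chain genes in WT (blue) and Pbrm1 cKO (orange). Trdc reached 55 to 70 counts and Cd3g 25 to 40 in Pbrm1 cKO, whereas Trbc2 overlapped between the groups.

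Coreceptors of the T cell were scarce. Cd4, which binds MHC class II and is also found on some macrophages, had counts of 3, 8 and 5 in WT and 3, 5 and 2 in Pbrm1 cKO, with overlapping groups (DESeq2 log2 fold change −0.97 ± 0.97 (SE), adjusted p = 0.508). Cd8a had 0 counts in all WT libraries and 1 count in Pbrm1 cKO replicate 3. Cd8b1 had 1 count in WT replicate 1 and 0 elsewhere. At this depth 0 counts in a library allow up to 3, or 0.164 to 0.226 CPM (counts scaled to library size), so transcripts of both CD8 chains were at or under the limit of detection in both groups and no ratio is given.

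Surface molecules of T cells, some of which NK cells share, were also low. Cd2, an adhesion molecule, had counts of 0, 3 and 1 in WT and 7, 3 and 5 in Pbrm1 cKO, with overlapping groups (DESeq2 log2 fold change 1.67 ± 1.29 (SE), adjusted p = 0.367). Cd5, an inhibitory receptor of T cells, had 3, 1 and 1 counts in Pbrm1 cKO and 0 in all WT libraries, too few to test. Cd27, a costimulatory receptor, had 2 counts in WT replicate 1, 2 in Pbrm1 cKO replicate 1 and 0 in the other libraries.

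Among the proximal signalling genes, Zap70 was higher in Pbrm1 cKO and Lck was not. Zap70 (chr1:36761798-36782818), the kinase that binds phosphorylated CD3 and zeta chains, had counts of 1, 0 and 1 in WT and 10, 9 and 12 in Pbrm1 cKO. These groups lay far apart, with a ratio of 12.8 (exact counting interval 3.27 to 111; DESeq2 adjusted p = 0.0157). Zap70 passed the filter only through its Pbrm1 cKO counts. It was below the filter in 8 of 13 other settings, so it could not be tested there. In the DESeq2 test against a log2 fold change of 0.58 it missed the threshold (adjusted p = 0.202). Lat, the membrane adaptor phosphorylated by Zap70, had counts of 0, 4 and 4 in WT and 9, 13 and 11 in Pbrm1 cKO (log2 fold change 1.76, SE 0.91, adjusted p = 0.134), again without overlap.

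Lck, the kinase that acts before Zap70, was the second most abundant member in WT by normalized count. Its counts were 67, 50 and 65 in WT and 68, 82 and 55 in Pbrm1 cKO. The normalized counts overlapped, at 65.8 ± 8.94 and 61.4 ± 8.52 (SD over 3 libraries; DESeq2 log2 fold change −0.10 ± 0.27 (SE), adjusted p = 0.835). The ratio was 0.934 with a counting interval of 0.761 to 1.15. Lck held 36.3%, 23.3% and 28.9% of the summed TPM of the members in WT and 11.7%, 11.2% and 10.5% in Pbrm1 cKO. The level of Lck in WT, 4.24 TPM, stood beside 0.126 TPM for Cd3g and 0.0457 TPM for Zap70 in the same libraries, and in Pbrm1 cKO the corresponding levels were 4.55, 1.87 and 0.682 TPM.

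The NK receptors among the members held few reads, and none passed the threshold. Other NK receptor genes were named after their values were seen, and they went both ways. Klrb1a, a lectin-like receptor gene, had 2, 9 and 8 counts in Pbrm1 cKO and 0 in all WT libraries (DESeq2 adjusted p = 0.0168). The activating receptor gene Cd226 was also higher (log2 fold change 3.23, adjusted p = 0.00444). Both passed the filter only through their Pbrm1 cKO counts. Klri2 had 2, 1 and 2 counts in WT and Klra9 had 1, 1 and 2. Both had 0 counts in Pbrm1 cKO and were too low to test. Klrg1 did not pass the threshold (log2 fold change −0.25, adjusted p = 0.914). Klrd1 (CD94), the partner chain of the NKG2 receptors, had counts of 0, 3 and 1 in WT and 4, 14 and 10 in Pbrm1 cKO (DESeq2 log2 fold change 2.49 ± 1.14 (SE), adjusted p = 0.0835). Klrk1 (NKG2D), an activating receptor for stress ligands that some T cells also carry, had 4, 4 and 7 in WT and 15, 11 and 12 in Pbrm1 cKO (log2 fold change 1.09, SE 0.71, adjusted p = 0.259). Both genes were higher in every Pbrm1 cKO library than in any WT library.

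The receptors most particular to NK cells as background were nearly silent. Ncr1 (NKp46) had 3, 1 and 0 counts in Pbrm1 cKO and 0 in all WT libraries, and Klrb1c (NK1.1) had 0, 1 and 0 in WT and 1 in each Pbrm1 cKO library. Klre1, an NK lectin-like receptor, had 0, 4 and 2 in WT and 2, 4 and 2 in Pbrm1 cKO, with overlap. All 3 genes were too low to test.

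Granule genes among the members held few reads, and all but Nkg7 overlapped between the groups. Gzmc, a granzyme, was the only one tested, with counts of 0, 5 and 7 in WT and 6, 6 and 8 in Pbrm1 cKO (DESeq2 log2 fold change 0.47 ± 1.00 (SE), adjusted p = 0.787). Prf1, the pore-forming perforin, had 0, 4 and 1 in WT and 0, 8 and 1 in Pbrm1 cKO. Gzmb had 1, 0 and 3 in WT and 4, 1 and 0 in Pbrm1 cKO, Gzma had a single count in Pbrm1 cKO replicate 1, and Nkg7, a granule membrane protein, had 0, 1 and 0 in WT and 2 in each Pbrm1 cKO library. None of these 5 members passed the threshold in either direction. Granule genes of the list of other NK and cytotoxic genes, named after their values were seen, differed among themselves. Gzmm (DESeq2 log2 fold change 0.94, adjusted p = 0.0343) and Ctsw (1.59, adjusted p = 0.0045) were higher in Pbrm1 cKO. The granzyme gene Gzmf had a negative log2 fold change that missed the threshold (−1.72, adjusted p = 0.308). No library held reads of Gzmg, Gzmk or Gzmn, and Gzmd and Gzme held 1 read each.

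Lineage transcription factors and interferon gamma could not be tested. Tbx21 (T-bet), which drives interferon gamma programmes, had 4, 0 and 4 counts in Pbrm1 cKO and 0 in all WT libraries. The groups overlapped at 0, and no fold is given. Eomes had 0, 0 and 1 in WT and 0, 1 and 2 in Pbrm1 cKO. Foxp3, the factor of regulatory T cells, had 0, 0 and 1 in WT and 2, 1 and 1 in Pbrm1 cKO. Ifng had 2 counts in Pbrm1 cKO replicate 2 and 0 in the other libraries.

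Both cytokine receptor genes were higher in Pbrm1 cKO. Il7r (chr15:9505788-9530176), the alpha chain of the receptor for interleukin 7, supports the survival of naive and memory T cells and of innate lymphoid cells. Its counts were 55, 89 and 82 in WT and 429, 494 and 376 in Pbrm1 cKO. Normalized counts rose from 82.1 ± 20.8 to 390 ± 35.4 (SD over 3 libraries; DESeq2 log2 fold change 2.25 ± 0.20 (SE), adjusted p = 5.86e-27). The lowest Pbrm1 cKO library was several times above the highest WT library. Il7r made up 18.7%, 26.1% and 22.9% of the summed TPM of the members in WT and 46.3%, 42.4% and 45% in Pbrm1 cKO.

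Il2rb (chr15:78479256-78495271), the beta chain shared by the receptors for interleukins 2 and 15, serves NK cells and memory T cells. Its counts were 4, 17 and 19 in WT and 41, 87 and 39 in Pbrm1 cKO (DESeq2 log2 fold change 1.75 ± 0.51 (SE), adjusted p = 0.00336). The groups did not overlap, WT replicate 1 was the lowest and Pbrm1 cKO replicate 2 the highest. Without Pbrm1 cKO replicate 2 the call was lost (log2 fold change 1.41, adjusted p = 0.103).

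Cd69 (chr6:129267325-129275436), a lectin that appears early after lymphocyte activation and marks tissue-resident lymphocytes, had counts of 1, 4 and 6 in WT and 23, 22 and 45 in Pbrm1 cKO. Normalized counts were 4 ± 2.74 in WT and 27.5 ± 13 in Pbrm1 cKO (SD over 3 libraries; DESeq2 log2 fold change 2.78 ± 0.70 (SE), adjusted p = 0.000475). Pbrm1 cKO replicate 3 was the highest, and the groups did not overlap. Groups did not overlap in 14 of all 32 members and in 12 of the 17 tested, and among all genes tested the share, in either direction, was 48.6%. Several tested members passed the filter only through their Pbrm1 cKO counts, so nothing is read from these counts.

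**Figure D3:**
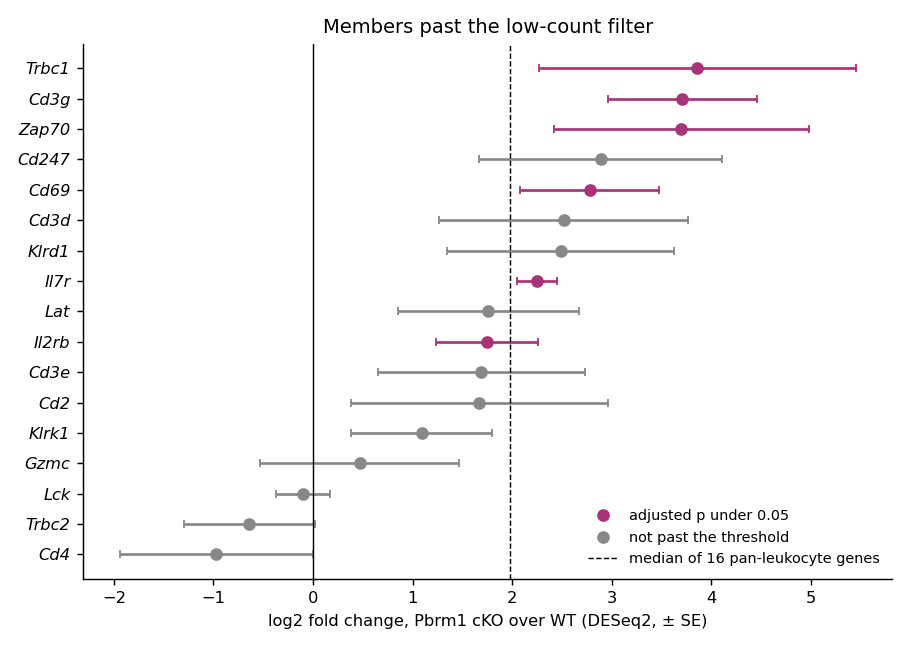
Log2 fold change of Pbrm1 cKO over WT with its SE (DESeq2) for the 17 members past the low-count filter, with the 6 members past the adjusted p threshold in purple and the dashed line at the median of 16 pan-leukocyte genes, 1.98. Lck, Trbc2 and Cd4 lie left of 0, and Trbc1, Cd3g and Zap70 lie furthest right with wide errors for Trbc1 and Zap70.

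In order of TPM in Pbrm1 cKO, Il7r was first at 18.2, followed by Lck at 4.55, Il2rb at 2.47, Trbc2 at 2.31, Cd3g at 1.87, Trbc1 at 1.64, Gzmc at 1.47 and Klrd1 at 1.37. The step from Il7r to Lck was larger than the spread of either. Lck (4.55 ± 0.753, SD over 3 libraries) lay above Il2rb (2.47 ± 0.929), and from Il2rb to Klrd1 (1.37 ± 0.624) the gap between neighbours was smaller than the larger of their SDs. Il7r, Lck and Il2rb together held 72.8% to 79.2% of all member counts in every library.

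T and NK genes were then set against each other in each library. The T set held Cd3d, Cd3e, Cd3g, Cd4, Cd5, Cd8a, Cd8b1, Trbc1 and Trbc2, and the NK set held Ncr1, Klrb1c, Klrd1, Klrk1, Klre1 and Eomes. Klrk1, which is not particular to NK cells, supplied 15 of the counts of the NK set in WT and 38 in Pbrm1 cKO. The T set counts were 24, 22 and 19 in WT and 62, 83 and 54 in Pbrm1 cKO. The NK set counts were 4, 12 and 11 in WT and 25, 32 and 27 in Pbrm1 cKO. T set counts were above NK set counts in all 6 libraries, over sets of 9 and 6 genes. Per gene and per length, the T to NK ratio of the mean TPM was 29.7, 2.48 and 4.18 in WT and 2.92, 2.26 and 1.68 in Pbrm1 cKO, with overlapping groups and the highest value in WT replicate 1, which had the fewest NK set counts.

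The T share of these counts was 85.7% (exact Clopper-Pearson 95% interval 67.3 to 96), 64.7% (46.5 to 80.3) and 63.3% (43.9 to 80.1) in WT. In Pbrm1 cKO it was 71.3% (60.6 to 80.5), 72.2% (63 to 80.1) and 66.7% (55.3 to 76.8). The ranges of the groups overlap, and no difference in the share was detectable at this depth. Without Klrk1, a choice made after seeing the data, the NK set was left with 0, 8 and 4 reads in WT against 10, 21 and 15 in Pbrm1 cKO, and the T share was 100%, 73.3% and 82.6% in WT and 86.1%, 79.8% and 78.3% in Pbrm1 cKO, again with overlap. The intervals cover counting error only.

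The share depended on which T genes were counted. In WT, Trbc2 alone held 87.4%, 79.9% and 71.8% of the T set TPM, and in Pbrm1 cKO it held 28.7%, 34.5% and 31.7%. Trbc1, Trbc2 and Cd4 were left out as genes that near-identical copies or other cell types may share. Trbc2 and Cd4 were also the tested T genes with a negative log2 fold change, so leaving them out raises the ratio of Pbrm1 cKO to WT. Without the 3 genes the T share was 60% (interval 26.2 to 87.8), 29.4% (10.3 to 56) and 31.2% (11 to 58.7) in WT, from 10 to 17 counts a library, and 64.3% (51.9 to 75.4), 64% (53.2 to 73.9) and 61.4% (49 to 72.8) in Pbrm1 cKO. These shares did not overlap between the groups, although the interval of each WT library overlapped those of the Pbrm1 cKO libraries. The ratio of T to NK summed TPM without those genes was 4.29, 0.294 and 0.763 in WT and 1.87, 1.33 and 1.3 in Pbrm1 cKO, so NK set genes then led in WT replicates 2 and 3. On the TPM scale the T set sum was 3.91 ± 1.06 in WT and 7.29 ± 1.73 in Pbrm1 cKO (SD over 3 libraries), a ratio of 1.87. Without Trbc1, Trbc2 and Cd4 it was 0.385 ± 0.116 and 3.18 ± 0.34, a ratio of 8.26. The NK set sum was 0.51 ± 0.389 TPM in WT and 2.16 ± 0.406 TPM in Pbrm1 cKO, a ratio of 4.24, which rests on 4 to 12 counts in each WT library. On the log2 scale this ratio was 2.08, with 1.37 in CPM, 2.76 without WT replicate 2 and 1.61 without WT replicate 1.

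**Figure D4:**
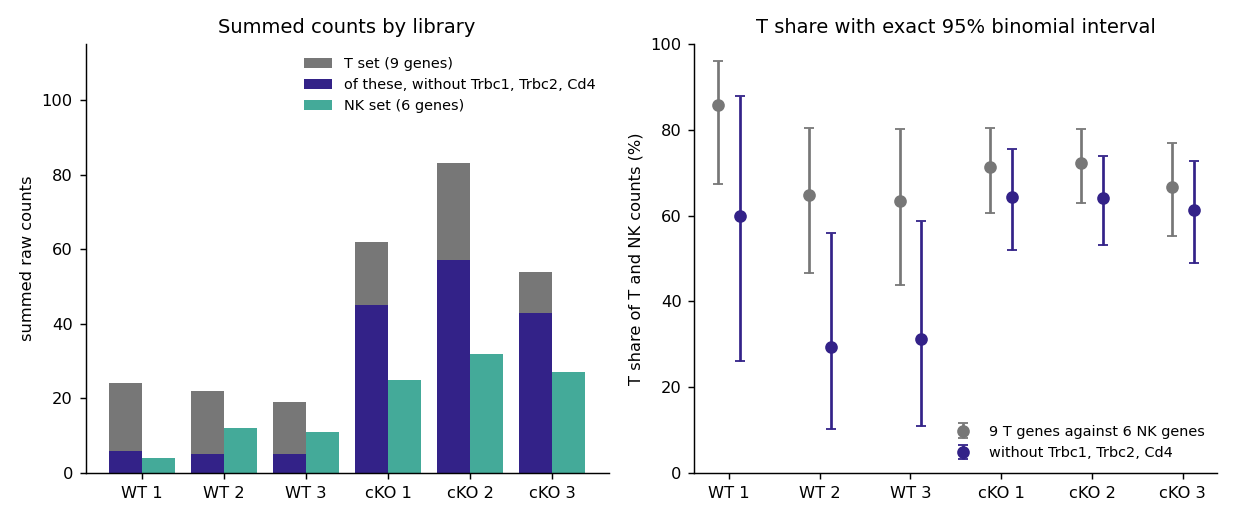
Left, summed raw counts of the T set genes (grey, with the part without Trbc1, Trbc2 and Cd4 in blue) and of the NK set genes (green) in each library. Right, the T share of these counts in percent with exact 95% binomial intervals as bars. Over all 9 T genes the shares themselves lie between 63.3% and 85.7%, and the intervals reach from 43.9% to 96%.

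Genes of leukocytes in general were higher in Pbrm1 cKO as well. All 16 pan-leukocyte genes, among them Ptprc (CD45), passed the threshold in this direction, with log2 fold changes from 1.38 to 3.67 and a median of 1.98 (DESeq2, adjusted p under 0.05). The list was chosen with earlier results of these data known, so this count is a description. The 16 genes varied between libraries. The summed level of the pan-leukocyte genes was 77.6, 173 and 171 TPM in WT and 641, 595 and 575 TPM in Pbrm1 cKO. WT replicate 1 was lowest, and without it 5 of the members remained called. The 13 tested genes of the macrophage and dendritic list, out of 16, were all higher, with summed levels of 483, 1128 and 1142 TPM in WT and 4784, 4730 and 4853 TPM in Pbrm1 cKO. The part of this general shift in the values of the members was not tested.

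Relative to the pan-leukocyte sum, the 32 members amounted to 16.8%, 8.63% and 9.17% in WT and 6.81%, 7.31% and 6.12% in Pbrm1 cKO, with no overlap between groups. The CD3 chains amounted to 0.456%, 0.152% and 0.234% in WT and 0.467%, 0.562% and 0.458% in Pbrm1 cKO, and WT replicate 1 came close to the Pbrm1 cKO libraries. The whole T set, which Trbc2 leads in WT, amounted to 6.61%, 1.92% and 1.92% in WT and 1.21%, 1.47% and 0.935% in Pbrm1 cKO, which is lower in Pbrm1 cKO with no overlap. The NK set genes amounted to 0.148%, 0.516% and 0.306% in WT and 0.276%, 0.434% and 0.372% in Pbrm1 cKO, with overlap. Per 1000 counts of Ptprc, Cd3g had 7.55 counts in WT and 25.9 in Pbrm1 cKO, Il7r had 284 and 354, Il2rb had 50.3 and 45.5, and Lck had 229 and 55.9. These are ratios of pooled counts and carry no test. Library by library, Cd3g had 18.6, 3 and 6.64 counts on this scale in WT against 21.7, 29.9 and 25.5 in Pbrm1 cKO, so WT replicate 1 was close to the Pbrm1 cKO libraries, and the pooled WT value was 4.73 without it. Lck had 416, 150 and 216 in WT against 59, 61.2 and 46.7 in Pbrm1 cKO, and its groups lay apart.

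**Figure D5:**
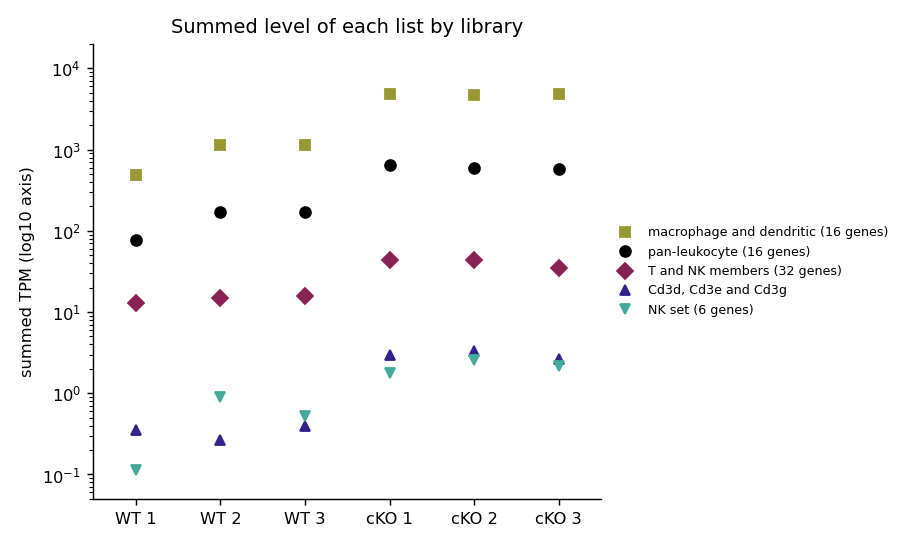
Summed TPM on a log10 axis in each library for the macrophage and dendritic list, the pan-leukocyte list, the 32 members, the 3 CD3 chains and the 6 NK set genes. The members run from 13 to 15.7 TPM in WT and from 35.2 to 43.6 TPM in Pbrm1 cKO, below the pan-leukocyte list in all libraries.

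The labelled cell type was checked on its markers. The 14 stromal genes, among them Pgr, the gene that drives Cre here, with 6024 to 8398 counts a library over both groups, summed to 3927 to 4604 TPM in WT and 3515 to 4037 TPM in Pbrm1 cKO, the 8 smooth muscle genes to 4335 to 4492 and 4832 to 5149 TPM, and the 12 epithelial genes to 214 to 331 and 397 to 410 TPM. Of the stromal genes 1 was higher and 7 were lower, of the smooth muscle genes 0 and 3, and of 11 tested epithelial genes 4 and 0. Stromal markers were thus present in every library, while leukocyte and epithelial transcripts were present too. Most of the smooth muscle sum came from Tagln (means of 2871 TPM in WT and 3771 TPM in Pbrm1 cKO) and Des (1154 and 975 TPM). Myh11 (2.02 and 1.9 TPM) and Cnn1 (1.97 and 0.864 TPM) were low in both groups. Tagln and Myh11 were named after their values were seen. Neutrophil genes summed to 3.3 to 6.37 TPM in WT and 17.9 to 20.8 TPM in Pbrm1 cKO, with 2 of 3 tested genes higher. These were S100a8 (means of 3.43 and 10.8 TPM) and Csf3r (0.719 and 7.36 TPM). Mpo missed the threshold (DESeq2 log2 fold change −0.84, adjusted p = 0.686). Among genes too low to test, named after their values were seen, S100a9 averaged 0.13 and 1.06 TPM and Camp 0.54 and 0.0765 TPM. Ly6g averaged 0.0722 and 0.0696 TPM, Retnlg had 1 read, in WT replicate 1, and Elane had no reads. B cell genes summed to 0.67 to 1.48 and 2.05 to 3.19 TPM, with 1 of 2 tested genes, Blk, higher. Mast cell and basophil genes summed to 0.381 to 3.73 and 1.21 to 4.57 TPM, with 0 of 3 tested genes called. The 6 red blood cell genes summed to 0.538 to 2.12 TPM in WT and 37.8 to 68.9 TPM in Pbrm1 cKO, with 4 of 4 tested genes higher. The part of red blood cell or epithelial RNA in the results was not tested. Endothelial genes summed to 57.8 to 139 TPM in WT and 47.2 to 52.4 TPM in Pbrm1 cKO, with 1 higher and 2 lower of 8.

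Other T cell genes were counted on a list of 38, of which 29 were tested, 13 were higher and 3 lower in Pbrm1 cKO (DESeq2). Besides Trdc, the lowest adjusted p belonged to Havcr2, an inhibitory receptor that macrophages also express (log2 fold change 1.84, SE 0.25, adjusted p = 7.53e-12), and to Slamf6, a receptor of T and NK cells (2.51, SE 0.36, adjusted p = 4.56e-11). The 3 lower genes, named after their values were seen, were Lef1 (−0.88), Tcf7 (−0.76) and Gimap4 (−1.38). In WT the counts of Gimap4 were 13, 114 and 92, and in Pbrm1 cKO they were 32, 45 and 26, with WT replicate 1 below every other library. Lef1 and Tcf7 encode Wnt-responsive factors that are also used outside T cells, and Lef1 had 361 to 547 counts in WT, well above every T set member.

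Other NK and cytotoxic genes were counted on a list of 47, of which 21 were tested, 10 were higher and 1 was lower. The lowest adjusted p belonged to Itga2 (CD49b), an integrin that many other cells also express (DESeq2 log2 fold change 0.99 ± 0.12 (SE), adjusted p = 2.25e-14), Nfil3, a factor needed for NK development but used in many cells (0.88, SE 0.16, adjusted p = 3.28e-07), and Il18r1, a receptor chain for interleukin 18 (2.26, SE 0.44, adjusted p = 3.6e-06). The lower gene was Il18rap, the partner chain of Il18r1 (−1.06, SE 0.34, adjusted p = 0.00831), which was named after its values were seen.

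Of 12 adaptors and integrins that T and NK cells share with myeloid cells, 11 were higher and 0 lower. Among all genes tested 15.9% were higher and 15.2% lower. Part of this list is also on the pan-leukocyte list, so the counts of these lists are not separate. The lowest DESeq2 adjusted p belonged to Fyb (log2 fold change 2.76, adjusted p = 1.24e-42), Vav1 (2.82, adjusted p = 7.34e-32) and Itgb2 (2.43, adjusted p = 1.77e-30). Of 18 cytokines and chemokines that act on T and NK cells, 12 were tested, 5 were higher and 0 lower. The chemokines Cxcl16 (DESeq2 log2 fold change 1.63 ± 0.17 (SE), adjusted p = 6.69e-20) and Cxcl10 (2.38, SE 0.31, adjusted p = 5.78e-13) led this list, with Il15ra (0.68, SE 0.17, adjusted p = 0.000569), which presents interleukin 15 to NK cells. Il15 itself, picked after its values were seen, did not pass the threshold (log2 fold change 0.04, SE 0.38, adjusted p = 0.951).

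Of 20 ligands of T and NK receptors, 16 were in the table, 15 were tested, 6 were higher and 5 lower. Cd274 (PD-L1), the ligand of the inhibitory receptor PD-1, was higher (DESeq2 log2 fold change 2.26 ± 0.18 (SE), adjusted p = 5.01e-33), as was Cd48, a ligand that leukocytes carry themselves (2.42, SE 0.27, adjusted p = 1.47e-17). Cd48 is also on the pan-leukocyte list. Raet1d, a ligand of the member Klrk1, had counts of 122, 80 and 72 in WT and 14, 24 and 21 in Pbrm1 cKO and was lower (−2.49, SE 0.34, adjusted p = 1.26e-11). H60c, another ligand of Klrk1 that was named after its values were seen, had 14, 3 and 9 counts in Pbrm1 cKO and 0 in all WT libraries and was higher (adjusted p = 0.00369). It passed the filter only through its Pbrm1 cKO counts. The other ligands of Klrk1 tested on this list were Raet1e (log2 fold change −2.12, adjusted p = 4.49e-09) and Ulbp1 (−0.45, adjusted p = 0.00225), which were lower, and H60b (−0.88, adjusted p = 0.487), which did not pass the threshold. The annotated spans of Raet1d and H60b lie within that of Raet1e, so the split of reads between these genes is uncertain. Klrk1 itself did not pass the threshold.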

How the data were processed

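Total RNA of 6 libraries was sequenced. Per the submitters' processing notes, the authors used cutadapt, HISAT2 and featureCounts with GRCm38.p5, and the deposited table holds raw counts per gene (featureCounts 1.6.4, per the file headers), without normalization and with replicates kept apart. The labels describe random and poly(T) priming with transcript depletion, whereas the methods describe poly(A) selection, so the captured RNA classes are not settled. Groups came from the sample titles. The gene length column of the deposited table served only for TPM, CPM and TPM being computed here. Symbols were found for 54079 of 54232 genes (99.7%).

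Counts were fitted over all genes with DESeq2 1.42.0 (R 4.3.3), the method of the study, with a Wald test, Benjamini-Hochberg adjustment over all genes and a threshold of 0.05. Alternatives used edgeR 4.0.16, limma 3.58.1, other scaling and filters, a replicate block and omission of each library. The fit was also run on simulated counts drawn from the means and library sizes of these samples. Changes were placed only in genes with more counts than most members, and all genes had the same spread. That simulation therefore cannot judge calls at the depth of most members. A group with up to 3 counts over its libraries was taken as at the floor, and no ratio is given where both groups were. Members and gene lists were chosen with earlier results of these data known. All 32 members are named, with Pbrm1 and up to 3 genes of lowest adjusted p from the lists of related genes, and genes named outside this rule are marked as such, apart from Ptprc and Pgr, which serve as reference genes for leukocytes and for the cells that carry Cre, and Raet1e, Ulbp1, H60b, Tcrg-C2 and Blk, which complete a group. Promoter windows were from RefSeq.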

Additional observations from a re-analysis of the deposited data

How the results depend on the processing

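Of the 6 members called higher, Cd3g, Cd69 and Il7r were called under all 13 alternatives, and 0 members were called lower under any, though Trbc2 was tested in 10 of them and Cd4 in 3. The count of higher members was 3 in the test against a log2 fold change of 0.58 at adjusted p 0.1, where Il2rb had an adjusted p of 0.279, and 3 to 5 with a library left out, with 3 without Pbrm1 cKO replicate 2. Trbc1 was called under 1 of the 13 alternatives and Zap70 under 4, mostly because fewer low genes were tested (10 and 8 alternatives without a test). With a library left out, the log2 fold change of Gzmc ran from −0.12 (without WT replicate 1) to 1.13, and that of Lck from −0.21 to 0.01 (without Pbrm1 cKO replicate 3); the cause was not tested, and neither was called. The log2 ratio of the T set TPM sum was 0.90 and was 3.04 without Trbc1, Trbc2 and Cd4. The ratio of T to NK sums in Pbrm1 cKO was 3.43, 2.36 on the CPM scale and 1.5 without those genes. In WT this ratio was 18.2 ± 22.8 (SD, n = 3), 4.99 without WT replicate 1, which held 4 NK set counts, 3.19 on the CPM scale and 1.78 without Trbc1, Trbc2 and Cd4. Without Klrk1, an alternative added after seeing the data, the ratio in Pbrm1 cKO was 4.22 and the log2 ratio of the NK set 2.3, against 2.08 with it; in WT no mean ratio could be given, as WT replicate 1 then held 0 NK set counts.

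With the replicate number as a replicate block, 4 members were called higher. Same-numbered libraries did not deviate together (correlations 0.0401, −0.0388 and −0.000927), so the numbers were not taken as pairs. For 15 members depth limits the comparison, as their mean normalized counts were under the filter of 2.67.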
